A study of Mus musculus with 6 samples.

Results

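The suprabasal differentiation keratins are keratin genes that are used above the dividing basal layer of a stratified epithelium such as the epidermis. The members were chosen by gene name, as keratins of suprabasal epidermis and other stratified epithelia: Krt1, Krt2, Krt10, Krt77, Krt78, Krt80, Krt23, Krt4 and Krt13. All 9 are among the 55367 gene names of the count table, and 8 of the 9 had enough reads to be tested, the exception being Krt13.

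The study asked how loss of iASPP, the protein encoded by Ppp1r13l, changes the transcripts of primary mouse keratinocytes. Keratinocytes were isolated from the skin of 2-day-old pups of a mixed C57BL/6 and 129/Sv background that were homozygous for a floxed Ppp1r13l and carried a tamoxifen-inducible Cre (Ppp1r13l flox/flox;Cre+ERT). Cells of each of 3 batches were divided, and after 24 h in low-calcium medium one portion received tamoxifen (iASPP KO) and the other did not (iASPP WT), which gave 6 libraries in 3 pairs. Both groups carried the floxed alleles and the Cre, which is driven from the Gt(ROSA)26Sor locus and is therefore not restricted to keratinocytes. The controls received no tamoxifen, so an effect of the drug and an effect of the deletion cannot be told apart. Library totals ran from 20202517 to 25157117 counts. Levels are given as CPM, each gene's counts scaled to a common library size with TMM, a normalization that takes most genes as not different between libraries.

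Keratins are the intermediate filament proteins of epithelial cells, and each filament is built from pairs of an acidic type I and a basic type II keratin. Basal keratinocytes make the Krt5 and Krt14 pair, and cells that leave the basal layer add the Krt1 and Krt10 pair as one of the earliest signs of differentiation. Low calcium, as in these cultures, keeps keratinocytes mostly in the basal state.

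The deleted gene was examined first. Ppp1r13l was at 14.3 CPM in batch 1, 17.7 CPM in batch 2 and 5.91 CPM in batch 3 of iASPP KO, against 32.7, 45.1 and 21.0 CPM in iASPP WT. Values are listed in this order of batches throughout. Every iASPP KO culture was below every iASPP WT culture, and the log2 fold change was -1.45 ± 0.18 (SE, 3 pairs; adjusted p = 0.00296, edgeR's quasi-likelihood test with batch as a term and Benjamini-Hochberg adjustment over 14916 genes, as for all adjusted p below unless another fit is named). The labels therefore matched the transcript in all 3 pairs.

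The cultures carried markers of basal keratinocytes, although not all of them at a high level. Krt14 lay between 14958 and 17578 CPM, Krt5 between 4537 and 5928 CPM and Trp63, the transcription factor of stratified epithelia, between 125 and 180.5 CPM over the 6 cultures. Krt15, also a basal keratin, was far lower, at 8.95, 2.42 and 21.8 CPM in iASPP KO and 5.62, 1.85 and 5.03 CPM in iASPP WT. The batches were far from alike, and batch 3 stood apart in both conditions. The 8 fibroblast markers (Col1a1, Col1a2, Col3a1, Dcn, Lum, Pdgfra, Thy1 and Fbn1, none at 0 in all libraries) summed to 39.2, 53.5 and 469 CPM in iASPP KO and to 36.5, 47.4 and 685 CPM in iASPP WT. The most abundant of them on average was Col1a2, with 178 and 247 CPM in the batch 3 cultures. The same batch held the lowest CPM of 8 of the 9 members in both conditions, Krt77 being the exception, and whether the fibroblast transcripts bear on this was not tested. In RNA from whole cultures, fewer differentiating cells and less keratin RNA per differentiating cell cannot be told apart.

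With iASPP deleted, the suprabasal keratins did not move as a group. Krt23 and Krt78 were higher, Krt10 and Krt77 were lower, and Krt1, Krt2, Krt80 and Krt4 did not pass the threshold of 0.05 on the adjusted p. The 4 called members are 4 of 8 tested, against 4.12% of all tested genes (323 higher and 291 lower of 14916). The 2 higher members stand against a background of 2.17%, and the 2 lower ones against 1.95%. Members and gene lists were chosen with earlier results of these data known, so these shares and those of the lists below are descriptions. The median log2 fold change of the 8 members was 0.11 (-0.01 over the 7 that DESeq2 could call), beside 0.01 over all tested genes. The log2 fold change had the same sign in all 3 batches for 5 of 8 members (Krt2, Krt10, Krt77, Krt78 and Krt23), against 39.3% of all tested genes. Without batch in the model no gene passed the threshold in edgeR, 360 genes were higher and 331 lower at an unadjusted p under 0.05, and DESeq2 with batch called 483 higher and 410 lower, so the calls rest on the comparison within batches.

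**Figure D1:**
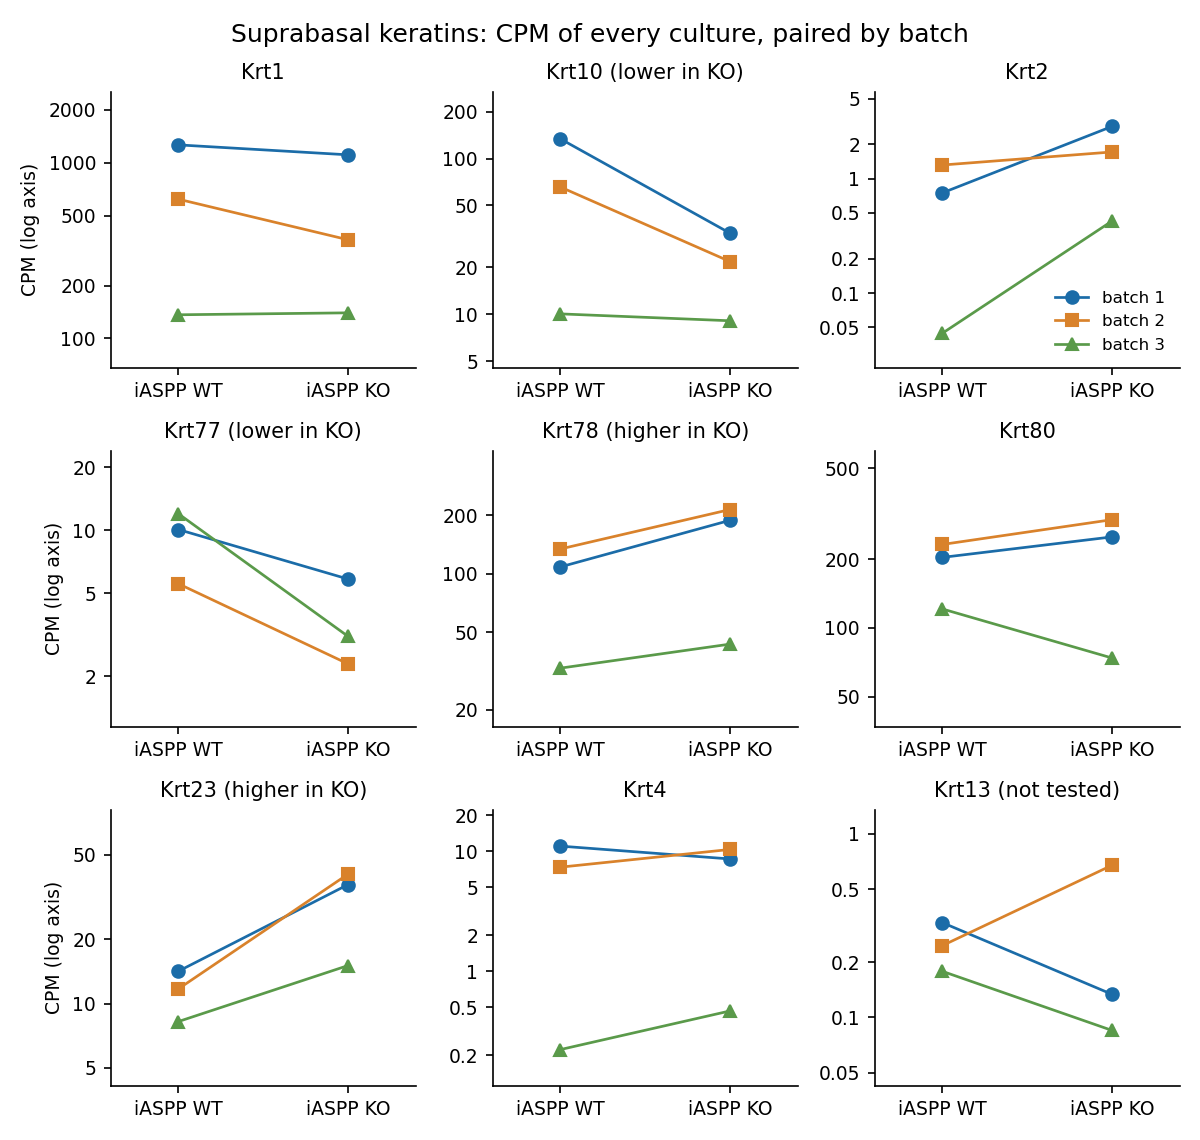
CPM of each of the 9 suprabasal keratins (log axis, a separate scale for each gene) in iASPP WT and iASPP KO cultures, with a line joining the cultures of 1 batch. Krt23 and Krt78 rise and Krt10 and Krt77 fall along all 3 lines, and batch 3 (triangles) is the lowest in both conditions for every member but Krt77.

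The 4 called members lie in the keratin clusters of both keratin chromosomes and go both ways in each. On chromosome 15, with the type II genes, Krt77 was lower and Krt78 higher. On chromosome 11, with the type I genes, Krt10 was lower and Krt23 higher. Their promoters are shown because members of one family moved in opposite directions, so that the sequence at each start site can be set beside its direction. Each run holds 250 bases before and 50 bases after the RefSeq start (GRCm38.p6), is read 5′ to 3′ on the minus strand, and lies at chr11:99389315-99389614 (Krt10), chr15:101869656-101869955 (Krt77), chr11:99493071-99493370 (Krt23) and chr15:101954238-101954537 (Krt78). Capitals mark matches, on either strand, to a TATA box or to the C/EBP site TTNNGCAA.
Krt10, lower in iASPP KO: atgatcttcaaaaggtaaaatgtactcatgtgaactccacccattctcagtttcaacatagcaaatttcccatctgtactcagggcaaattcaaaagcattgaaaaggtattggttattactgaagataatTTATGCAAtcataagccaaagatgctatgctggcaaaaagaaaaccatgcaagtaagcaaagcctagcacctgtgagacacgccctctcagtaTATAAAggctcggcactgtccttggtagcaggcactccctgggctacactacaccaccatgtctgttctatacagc
Krt77, lower in iASPP KO: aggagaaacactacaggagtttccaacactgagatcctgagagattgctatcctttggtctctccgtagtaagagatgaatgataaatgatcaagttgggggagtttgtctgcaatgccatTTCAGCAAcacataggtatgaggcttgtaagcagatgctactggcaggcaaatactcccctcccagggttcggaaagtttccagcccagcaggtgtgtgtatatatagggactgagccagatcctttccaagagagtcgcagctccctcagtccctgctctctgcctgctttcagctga
Krt23, higher in iASPP KO: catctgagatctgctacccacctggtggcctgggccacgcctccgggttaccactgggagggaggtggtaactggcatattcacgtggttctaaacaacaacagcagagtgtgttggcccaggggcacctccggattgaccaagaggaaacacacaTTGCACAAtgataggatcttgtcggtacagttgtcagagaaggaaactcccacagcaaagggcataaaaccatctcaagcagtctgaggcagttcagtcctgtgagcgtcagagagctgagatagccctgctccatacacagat
Krt78, higher in iASPP KO: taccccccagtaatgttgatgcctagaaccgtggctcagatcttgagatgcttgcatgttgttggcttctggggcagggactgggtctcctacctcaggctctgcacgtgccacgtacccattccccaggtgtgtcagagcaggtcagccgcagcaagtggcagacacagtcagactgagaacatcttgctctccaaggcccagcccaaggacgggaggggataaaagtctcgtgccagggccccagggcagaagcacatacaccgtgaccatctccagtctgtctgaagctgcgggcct

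The TATA box was searched as TATAAA only. Other forms of it were not searched, so a window without a match, such as that of Krt77 with its run tatatata, may still hold one. The search also covered the AP-1 site TGANTCA and a p53 family core repeated after a gap of 6 bases (CATG on both sides). Krt10 held a TATA box whose first base was at -26 from the start site. Of 32851 promoters of this length, 13.6% held that motif. A C/EBP match stood at -119 in Krt10, at -129 in Krt77 and, on the opposite strand, at -94 in Krt23, and 10.8% of all promoters held one. The Krt78 window held no match to any of the 4 motifs. None of the 4 called members' windows held an AP-1 match (7.81% of all promoters) or a p53 family match (0.712%). Of the members that were not called, Krt13 held AP-1 matches in both of its promoters, at -183 and -34 in one and at -196 in the other, and Krt2 held no match. A C/EBP match thus stood in both lower members and in 1 of the 2 higher ones, and a match is a description of letters only. Promoters were matched for 6 of the 9 members, and those of Krt1, Krt4 and Krt80 were not used here.

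Krt1 is the type II and Krt10 the type I partner of the first suprabasal filaments. Krt1 (chr15:101845426-101850794) had the most reads of the members, at 1110, 365 and 139.9 CPM in iASPP KO and at 1264, 620.4 and 136 CPM in iASPP WT. The groups overlapped almost completely, and the batch set the level far more than the condition did. Krt1 differed between the lowest and highest culture of a condition by 7.93 times in iASPP KO and 9.27 times in iASPP WT. The log2 fold change was -0.31 ± 0.15 (SE, adjusted p = 0.345), with -0.19, -0.77 and 0.04 in the 3 batches. Without batch 3 the decrease passed the threshold (log2 fold change -0.48, adjusted p = 0.00133 in edgeR), without batch 2 little of it was left (-0.0723, adjusted p = 0.947), and over all alternatives the adjusted p ran from 0.00133 to 0.989.

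Krt10 (chr11:99385254-99389364) stood at 33.2, 21.8 and 9.09 CPM in iASPP KO and at 134, 65.6 and 10.1 CPM in iASPP WT. The difference was large in batches 1 and 2 and slight in batch 3, where both cultures were below the other 4, so that the groups overlapped. Krt10 fell by 1.31 ± 0.29 on the log2 scale (SE, 2.48-fold lower, adjusted p = 0.0330), with log2 fold changes of -2.01, -1.58 and -0.15 in batches 1, 2 and 3. In batch 3, 214 counts in iASPP KO and 226 in iASPP WT gave a ratio of 0.903, with a 95% exact binomial interval from 0.746 to 1.09 for counting error only. A difference between the batches was not tested, since each batch holds 1 pair. The call was lost with DESeq2 (adjusted p = 0.144), with robust dispersion (0.159), without batch 1 (0.161), without batch 2 (0.150) and without the batch term (0.973). Over all alternatives the adjusted p ran from 2.97e-30 (without batch 3) to 0.973, and the log2 fold change from -1.80 to -0.90.

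The balance of the pair was followed as a description. The ratio of Krt1 to Krt10 counts, in which no scaling between libraries enters, was 33.4, 16.7 and 15.4 in iASPP KO and 9.46, 9.46 and 13.5 in iASPP WT. It was higher in iASPP KO in all 3 batches, by 1.82, 0.82 and 0.18 on the log2 scale, and the groups did not overlap. In batch 3 the counting interval of iASPP KO over iASPP WT included 1 for both genes, at 0.976 to 1.08 for Krt1 and 0.746 to 1.09 for Krt10. The lack of overlap rests on that small difference, and how often it occurs among other pairs of genes was not counted. Per kilobase of the longest coding transcript the ratio was 28.5, 14.3 and 13.1 against 8.07, 8.07 and 11.6. The ratio was chosen after the values were seen and carries no test.

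Krt2 and Krt77 are type II keratins and the nearest members to Krt1 on either side on chromosome 15, 27.3 and 7.94 kb away. Krt2, a keratin of the upper spinous and granular layers, was rare, with 64, 38 and 10 counts in iASPP KO and 16, 32 and 1 in iASPP WT. It was higher in the iASPP KO culture of each batch, but the log2 fold change of 1.56 ± 0.87 (SE) did not pass the threshold (adjusted p = 0.421). In batch 1 the ratio of 3.8 had a counting interval from 2.17 to 7.05. In batch 2 the ratio of 1.3 had one from 0.791 to 2.15, and the interval of batch 3 ran from 1.36 to 414, since it rests on 1 count in iASPP WT.

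Krt77 (chr15:101858731-101869705), a close relative of Krt1, was also at a low level, at 5.84, 2.29 and 3.10 CPM in iASPP KO and at 10.1, 5.54 and 12 CPM in iASPP WT. Each iASPP KO culture was below its partner, and the groups overlapped only in that the iASPP KO culture of batch 1 was just above the iASPP WT culture of batch 2. Krt77 fell by 1.33 ± 0.32 on the log2 scale (SE, 2.52-fold lower, adjusted p = 0.0466), and its log2 fold change was -0.78, -1.24 and -1.92 in the 3 batches. Unlike Krt1 and Krt10, Krt77 did not have its lowest culture of either condition in batch 3. There its iASPP WT culture was the highest of all 6, while its iASPP KO culture, at 3.10 CPM, was above only that of batch 2. The adjusted p was 0.0748 without batch 1, 0.128 without batch 2 and 0.0594 without batch 3, and it ran from 0.00234 to 0.973 over all alternatives, always with a negative fold change.

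Krt78 and Krt80 are type II keratins of stratified epithelia that lie apart from Krt1 in the same cluster. Krt78 (chr15:101946001-101954287) stood at 188, 214 and 43.5 CPM in iASPP KO and at 109, 134 and 32.7 CPM in iASPP WT. It was higher in iASPP KO within each batch, while the low batch 3 made the groups overlap. The log2 fold change was 0.63 ± 0.12 (SE, 1.55-fold, adjusted p = 0.0198), with 0.80, 0.67 and 0.41 in the 3 batches. The call was lost without batch 1 (adjusted p = 0.118), without batch 2 (0.137) and without the batch term (0.977), and over all alternatives the adjusted p ran from 5.23e-07 to 0.977.

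Krt80, a keratin found near the cell margins of many epithelia, did not differ in one direction. Its levels were 250.4, 298 and 73.8 CPM in iASPP KO and 204, 232 and 121 CPM in iASPP WT. It was higher in iASPP KO in batches 1 and 2 and lower in batch 3, with log2 fold changes of 0.30, 0.36 and -0.71. The model gave -0.01 ± 0.19 (SE, adjusted p = 0.986), which became 0.33 without batch 3 (adjusted p = 0.0726) and stayed between 0.0726 and 0.999 in adjusted p over all alternatives.

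Krt23 is a type I keratin outside the classical epidermal pairs. Krt23 (chr11:99477974-99493137) was at 36.2, 40.5 and 15.1 CPM in iASPP KO and at 14.2, 11.7 and 8.24 CPM in iASPP WT. All iASPP KO cultures were above all iASPP WT cultures, and Krt23 was the only one of the 8 tested members whose groups did not overlap, against 10.7% of all tested genes. The log2 fold change was 1.34 ± 0.21 (SE, 2.54-fold, adjusted p = 0.00750), the smallest adjusted p among the members, with 1.34, 1.78 and 0.87 in the 3 batches. The call was lost without batch 2 (adjusted p = 0.0525) and without the batch term (0.973). The adjusted p over all alternatives ran from 5.33e-13 to 0.973, with the log2 fold change between 1.12 and 1.57.

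Krt4 and Krt13 form the pair of internal stratified epithelia such as the oesophagus. Krt4 was at 8.64, 10.4 and 0.467 CPM in iASPP KO and at 11.1, 7.38 and 0.223 CPM in iASPP WT. It was lower in iASPP KO in batch 1 and higher in batches 2 and 3, and the 11 and 5 counts of batch 3 gave a counting interval from 0.672 to 7.70 for the ratio. The log2 fold change was 0.23 ± 0.34 (SE, adjusted p = 0.817), and it was 0.68, 0.0851 and 0.0658 without batches 1, 2 and 3. Krt13 had 3, 15 and 2 counts in iASPP KO and 7, 6 and 4 in iASPP WT, too few to be tested. Its largest count, 15 in the iASPP KO culture of batch 2, set the direction of that batch apart from the others. Per kilobase Krt13 was below Krt4 in all 6 libraries.

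**Figure D2:**
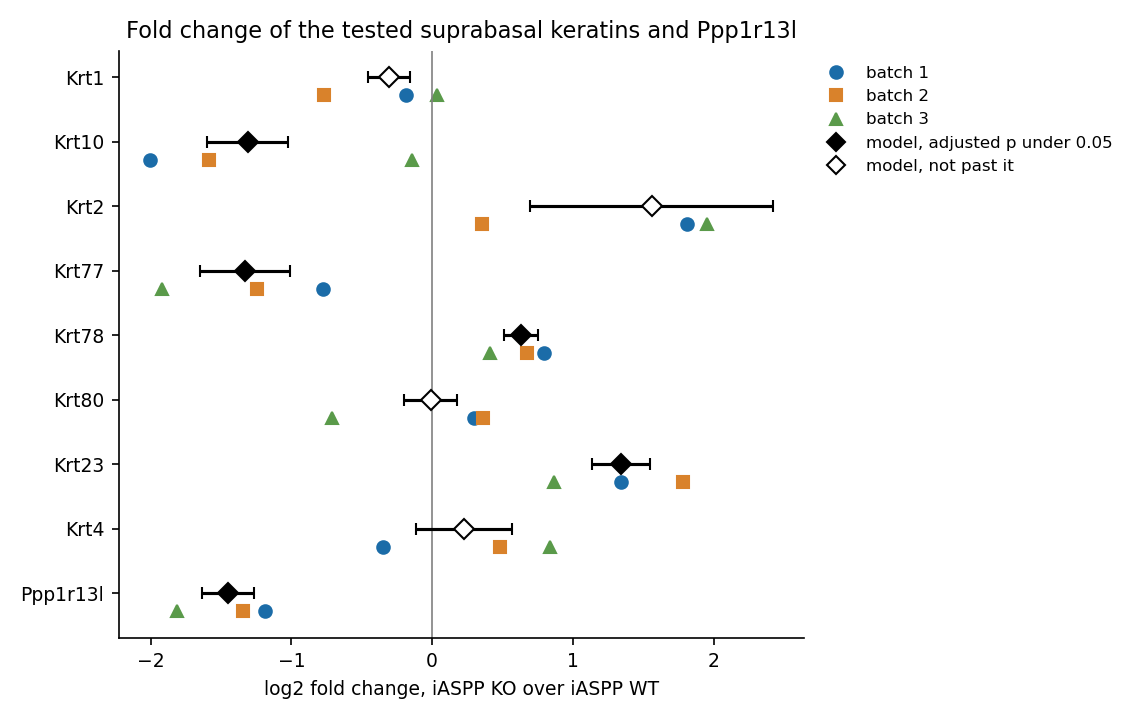
Log2 fold change of iASPP KO over iASPP WT for the 8 tested suprabasal keratins and Ppp1r13l. Diamonds are the model's estimate with its SE (filled where the adjusted p is under 0.05), and coloured points below them are the differences of log2 CPM within each batch; Krt10 and Krt1 have their smallest change in batch 3, Krt77 its largest, and Krt80 changes sign there.

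Compared per kilobase of exon, Krt1 was the most abundant member in all 6 libraries, and Krt13 or Krt2 the least. In each iASPP KO culture Krt78, Krt80, Krt23 and Krt10 followed Krt1 in that order, with mean levels of 43.3 ± 26.8, 32.4 ± 18.5, 19.5 ± 8.69 and 10.1 ± 5.70 CPM per kb (SD, n = 3). In iASPP WT the means were 33 ± 29.3 for Krt10, 29.0 ± 9.02 for Krt80, 26.7 ± 15.4 for Krt78 and 7.28 ± 1.91 for Krt23, and Krt10 ranked 2, 4 and 5 in batches 1, 2 and 3. The ranges of neighbours in the order overlapped in both conditions, except in iASPP WT between Krt78 and Krt23 and between Krt23 and Krt77. Krt77 and Krt4 were at 1.28 ± 0.63 and 3.04 ± 2.48 CPM per kb in iASPP KO and at 3.14 ± 1.13 and 2.92 ± 2.58 in iASPP WT. The exon length of Krt1 in the count table (4415 bases) includes exons of 2 retained-intron transcripts, while its longest coding transcript has 2455 bases, so its level per kilobase depends on the length used: 122 and 153 CPM per kb in iASPP KO and iASPP WT become 219 and 274 with the coding length. Krt80 has 6393 bases in the count table and 3919 in its longest coding transcript, and its means become 52.9 and 47.4. Which transcripts were made was not measured. With coding lengths Krt80 thus stood above Krt78 (43.3) in iASPP KO and above Krt10 (33.3) in iASPP WT, so the order of Krt80 among these genes depends on the length used.

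The suprabasal keratins together made up a small part of the keratin transcripts. Their share of the reads per kilobase of all 52 keratin genes examined was 1.31%, 0.852% and 0.312% in iASPP KO and 1.34%, 0.830% and 0.239% in iASPP WT. The batches differed far more than the conditions did. The difference of iASPP KO and iASPP WT within batches was -0.03, 0.02 and 0.07 percentage points, and the mean of 0.02 had p = 0.75 in an exact paired permutation test over the 3 batches (two-sided; the smallest p this design can give is 0.25). The sum hides the shifts between members. Without Krt1 the share was 0.473%, 0.553% and 0.174% in iASPP KO and 0.454%, 0.384% and 0.139% in iASPP WT, higher in iASPP KO in each batch (exact p = 0.25). A share also moves with the other keratins, and in batch 3 the wound-induced keratins made up 44.4% of the reads per kilobase in iASPP KO and 60.0% in iASPP WT. The summed CPM of the 9 members was lower in iASPP KO in each batch, at 1636, 954 and 285 CPM against 1746, 1078 and 321 CPM. With coding lengths, an alternative chosen after seeing the data, the mean difference was -0.00534 percentage points (exact p = 1). With the exon lengths but without batch 3 it was -0.00285. The sign of the difference in the share thus changed with the length used and with the batches.

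**Figure D3:**
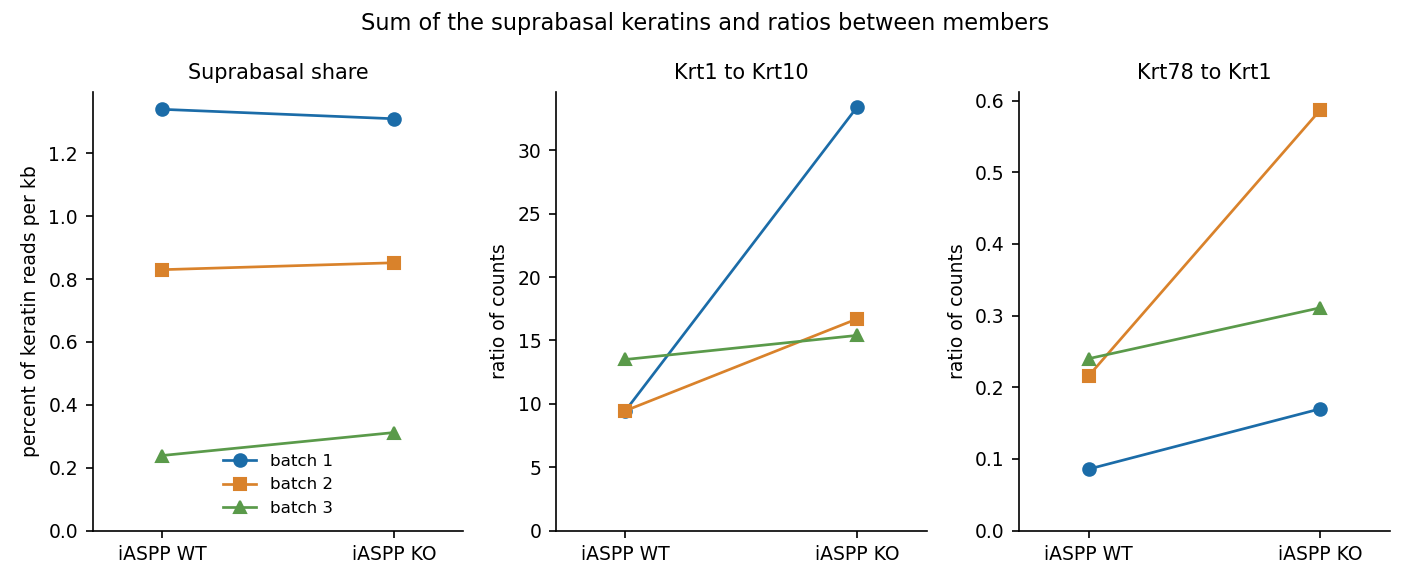
Share of the suprabasal keratins in all keratin reads per kb (left), ratio of Krt1 to Krt10 counts (middle; the batch 1 and batch 2 points of iASPP WT coincide at 9.46) and ratio of Krt78 to Krt1 counts (right) in each culture, joined within batches. The share differs more between batches than within any of them, and both ratios are higher in iASPP KO in all 3 batches. For Krt1 to Krt10 the batch 3 difference is small (15.4 in iASPP KO against 13.5 in iASPP WT). Neither ratio carries a test. The ratio of Krt77 to Krt1, which is not drawn, was lower in iASPP KO in all 3 batches, with log2 differences of -0.6, -0.507 and -1.99.

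The coding transcripts of the members share few read-length windows with other genes. Counted exons outside the longest coding transcript were not examined. These are chiefly in Krt1 (4415 bases counted, 2455 in that transcript) and Krt80 (6393 and 3919). Of the 42-base windows of the longest coding transcript, the length of the reads, none in Krt1, Krt77, Krt78, Krt23 or Krt13 occurred in a transcript of another gene. The share of such windows was 3.21% in Krt10, all with Gm11940 on the opposite strand of the same locus, which strand-specific counting separates, and 4.69% in Krt80, spread over many genes, and Krt2 and Krt4 shared 2 windows with each other. Of the wound-induced keratins, Krt6a had 63.9% of its windows shared, Krt6b 52.8%, Krt16 42.8% and Krt17 7.55%, and of the basal keratins Krt14 had 19.6% and Krt5 13.3%. Counts of these genes, which make up most of the keratin reads, can be split or lost among copies. All 9 members lie on the minus strand, and no other gene overlapped any of them on that strand.

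The other keratins showed where the suprabasal ones stand. None of the 3 basal keratins passed in edgeR or DESeq2, with Krt14 at a log2 fold change of -0.02 ± 0.10 (SE, adjusted p = 0.947) and a median of -0.02. The largest change among them was that of the low Krt15, at 1.09 ± 0.36 (SE, adjusted p = 0.145), with 0.66, 0.38 and 2.10 in the 3 batches. Of the 4 wound-induced keratins 1 was lower, against 1.95% of all tested genes: Krt17, which is made after injury and in culture. It stood at 20010, 16934 and 11231 CPM in iASPP KO and 23785, 23555 and 22272 CPM in iASPP WT. Krt17 fell by 0.57 ± 0.14 on the log2 scale (SE, adjusted p = 0.0470), a call lost without batch 2 (0.150), with at least 10 counts asked of every library (0.108), with robust dispersion (0.058) and without the batch term (0.973). None of the 4 tested simple-epithelium keratins passed in edgeR (Krt7 0.56 ± 0.25 SE, adjusted p = 0.299, and 0.0217 without a filter on low counts, with fold changes of 0.94 without batch 1 and 0.14 without batch 3), although all 4 fold changes were positive, with a median of 0.75, and DESeq2 called 1 of them higher. Of the hair follicle and hair keratins 4 of 24 were tested and none passed (Krt79 -1.13 ± 0.68, adjusted p = 0.464, with -1.87 without batch 1 and -0.0721 without batch 3), and of the 2 tested among the remaining keratins neither did (Krt42 0.88 ± 0.23, adjusted p = 0.0694, but 0.0378 without a filter and 0.0129 without batch 3), and DESeq2 called none of either list. At an unadjusted p under 0.05 edgeR counted 1 basal, 2 simple-epithelium, 0 hair and 1 of the remaining keratins.

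Genes that accompany the suprabasal keratins during differentiation were followed beside them. Of 33 spinous and granular genes other than keratins, 8 were higher and 2 lower, against 2.17% and 1.95% of all tested genes. The median log2 fold change was 0.36 beside 0.01 over all tested genes. The 4 higher ones with the smallest p were Sbsn, a secreted suprabasal protein, with 0.67 ± 0.11 (SE, adjusted p = 0.00864), Spink5, a protease inhibitor of the outer layers (0.69 ± 0.14, adjusted p = 0.0227), Cdsn, corneodesmosin (1.03 ± 0.21, adjusted p = 0.0257), and the protease Klk7 (0.70 ± 0.14, adjusted p = 0.0258). The lower ones were the filaggrin genes Flg2 (-2.16 ± 0.33, adjusted p = 0.00711) and Flg (-0.89 ± 0.21, adjusted p = 0.0428). Flg2 stood at 2.09, 6.15 and 2.38 CPM in iASPP KO and at 12.7, 14.8 and 15.4 CPM in iASPP WT, so that the groups did not overlap. The list, like the keratins, thus held members that went both ways. Its counts moved with the batches: 1 higher and 5 lower without batch 1, 3 and 2 without batch 2, 19 and 3 without batch 3. Over all tested genes those fits gave 169 higher and 151 lower, 174 and 117, and 793 and 662. The list held 13 higher and 4 lower with DESeq2 (483 and 410 of all genes). Without a filter on low counts it held 16 and 6 (624 and 491 of all genes). Sbsn, Spink5 and Klk7 lost their calls without batch 1 (adjusted p 0.0515, 0.131 and 0.113) and without batch 2 (0.0568, 0.127 and 0.187), Cdsn lost its call without batch 1 (0.0561), with DESeq2 (0.0929) and with robust dispersion (0.0974), and Flg2 and Flg passed without any one batch, although Flg did not with robust dispersion (0.0658).

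Among 31 regulators of suprabasal commitment, 2 were higher and 2 lower, against 2.17% and 1.95% of all tested genes. The median log2 fold change was 0.11 beside 0.01 over all tested genes. Hopx, a homeodomain-only protein that marks differentiating keratinocytes, stood at 327, 392 and 126 CPM in iASPP KO and at 128, 222 and 55.4 CPM in iASPP WT. It was higher in each pair, with a log2 fold change of 1.12 ± 0.13 (SE, adjusted p = 0.00192), and the call held without any one of the batches. Cebpb, a C/EBP factor of early differentiation, was higher by 0.54 ± 0.12 (adjusted p = 0.0389). Jag2, a Notch ligand, was lower, with a log2 fold change of -1.0 ± 0.18 (adjusted p = 0.0157), and so was the homeobox factor Barx2 (-0.56 ± 0.12, adjusted p = 0.0307). The 4 calls differed in how far they rested on one batch: Cebpb and Barx2 were lost without batch 1 (0.221 and 0.121) and without batch 2 (0.128 and 0.119), and Jag2 without batch 2 (0.0805). The counts of higher and lower regulators were 1 and 1 without batch 1, 1 and 0 without batch 2 and 10 and 4 without batch 3. Over all tested genes those fits gave 169 and 151, 174 and 117, and 793 and 662. With DESeq2 the regulators counted 4 and 2, and without a filter on low counts 4 and 3. Of the 12 genes that anchor keratin filaments at desmosomes and elsewhere none passed, with a median of -0.13 and 4 positive and 8 negative fold changes. Dsp, desmoplakin, the most abundant, was at 0.17 ± 0.10 (adjusted p = 0.480). At an unadjusted p under 0.05 edgeR counted 2 of the 12, and DESeq2 called 0.

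**Figure D4:**
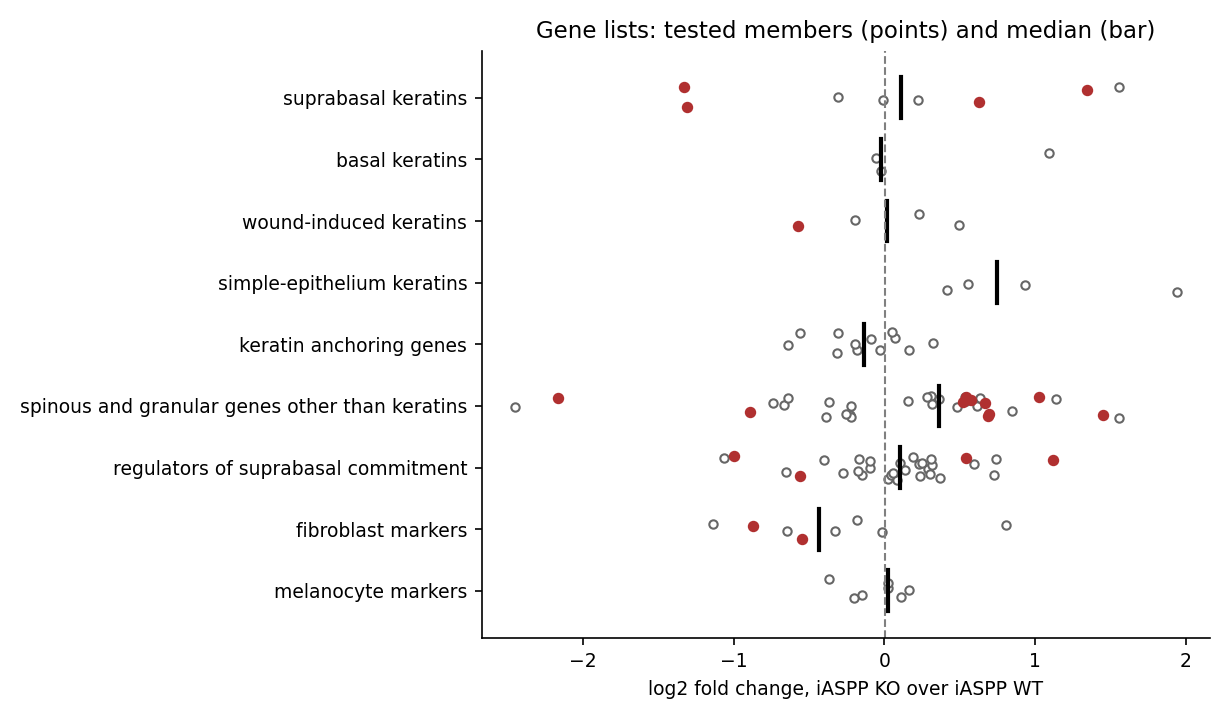
Log2 fold change of iASPP KO over iASPP WT for the tested genes of 9 lists. Points are genes (red where the adjusted p is under 0.05, with vertical jitter), black bars are medians and the dashed line is the median of all tested genes; the suprabasal keratins spread to both sides, with 4 positive and 4 negative values, and the spinous and granular genes have 21 positive and 12 negative ones.

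Markers of other cell types were followed beside these values. Of the 8 fibroblast markers 2 were lower, against 1.95% of all tested genes, and the median was -0.44. The lower ones were Col3a1 (-0.87 ± 0.18 SE, adjusted p = 0.0269) and Col1a2 (-0.55 ± 0.13, adjusted p = 0.0428). Pdgfra went the other way in 2 batches, at 16.3, 24.4 and 36.1 CPM in iASPP KO and 6.61, 8.0 and 48.2 CPM in iASPP WT (0.81 ± 0.34 SE, adjusted p = 0.258), and in batches 1 and 2 of iASPP KO it was the most abundant of the 8. The calls of Col3a1 and Col1a2 were lost without batch 2 (0.157 and 0.275) and without batch 3 (0.0715 and 0.238), and that of Col1a2 also without batch 1 (0.105). Of 8 leukocyte markers 5 were tested and 1 was higher, against 2.17% of all tested genes. It was Csf1r (1.11 ± 0.21, adjusted p = 0.0206), whose adjusted p was 0.0612 without batch 1 and 0.112 without batch 2. The list summed to 25.4, 31.9 and 71.9 CPM in iASPP KO and 14.1, 17.8 and 56.6 CPM in iASPP WT, with Csf1r the most abundant in batches 1 and 2, Lyz2 in batch 3, and Ptprc at 0 to 2.14 CPM. None of the 7 melanocyte markers passed (Pmel -0.15 ± 0.11, adjusted p = 0.588, and -0.0696 without batch 1). They summed to 894, 431 and 1065 CPM in iASPP KO and 1126, 367 and 1053 CPM in iASPP WT, with the least in batch 2. None of the 3 tested endothelial markers passed (Pecam1 0.45 ± 0.52, adjusted p = 0.750, with 0.10, 0.17 and 1.06 without batches 1, 2 and 3). For both lists edgeR counted 0 at an unadjusted p under 0.05 and DESeq2 called 0. The part of these cells in the keratin values was not tested.

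Genes with the pattern most like that of Krt1 and Krt10 were sought with the mean of each batch removed. This leaves 3 independent differences, so a high correlation is common: 74 tested genes had a Pearson r of 0.99 or above with Krt1, and 112 with Krt10. The 5 closest to Krt1 were Itgb3, Tead2, Usp12, Hdgf and Tmem147os, and the 5 closest to Krt10 were Rac3, Arl6ip1, Ppp1r12b, Arhgdig and Fbxo25, all at 0.999 or above over 6 libraries. None of the 10 passed in edgeR, and the likeness is a description of 3 pairs only.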

How the data were processed

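Ribosome-depleted RNA was read as single 42-base reads. From these the authors trimmed adapters (Cutadapt), made alignments to mm10 with STAR 2.7.3 and deposited raw counts of reads per gene name from featureCounts 2.0.0, counted on exons and by strand. The deposited counts were used without change; the authors' table of their own comparison, which holds log2 fold changes and p-values, was not used. Members and gene lists were chosen with earlier results of these data known.

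Genes with low counts were removed with filterByExpr, which left 14916 of 55367, and edgeR 4.0.16 (R 4.3.3; TMM, glmQLFit, glmQLFTest) was fitted to all of them with batch and condition, with Benjamini-Hochberg adjustment and a threshold of 0.05. Each SE is the fold change over the root of the F statistic. For a fold change within a batch, log2 CPM (prior count 2) of iASPP WT was subtracted from that of iASPP KO. The scripts were tested on simulated data. The alternatives were no batch term, DESeq2 1.42.0, other scalings and filters, robust dispersion and each batch left out. Without molecular tags, intervals describe counting error and nothing else. In these libraries 3 counts corresponded to 0.123 to 0.141 CPM.

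The labels give each iASPP KO and iASPP WT pair a shared batch. Deviations from the condition means correlated at 0.580, 0.672 and 0.762 within the pairs (10147 genes with a mean of 5 CPM or more), and at -0.652 to 0.304 across them. No 2 libraries of a condition were copies: chi-square per gene between cultures of a condition was 39.7 to 173.

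The genes named are the 9 members, Ppp1r13l, the most abundant and the called genes of each other keratin list, up to 4 called genes a direction (or the most abundant gene) of each further list, and the 5 genes closest to Krt1 and to Krt10. After the results were seen, 1 regulator that is not reported here was taken out of its list, for a reason other than its values. Trp63, Krt5, Krt15, the genes of shared windows and the remaining cell type markers are named in addition, as fixed markers or to define a list. Gene models and transcripts were those of GENCODE vM21, and promoters those of RefSeq (GRCm38.p6).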

Additional observations from a re-analysis of the deposited data

How the results depend on the processing

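The 8 tested suprabasal keratins kept their direction in 76 of 78 combinations of gene and alternative, and both their direction and their side of the threshold in 61; 14 lost a call and 1 gained one (Krt1). The direction turned for Krt80 alone, at 0.16 without the batch pairing and 0.33 without batch 3 (-0.20 to 0.33 with 1 batch left out). Of the other named genes, 22 were followed through the alternatives, without the genes closest to Krt1 and Krt10 and the markers named in addition. Among these 22, direction was kept in 219 of 220 combinations. The exception was Krt14 (0.0483 without batch 1, and -0.0677 to 0.0483 with 1 batch left out). In the same combinations 40 calls were lost and 3 were gained (1 of Krt7 and 2 of Krt42). Without the pairing by batch in the model, 0 genes were higher and 0 lower, members included (360 and 331 at an unadjusted p under 0.05), because the spread between batches then counts as error. The numbers of members were 2 higher and 1 lower with DESeq2 and with robust dispersion. Without a filter on low counts 624 genes were higher and 491 lower, with 31932 genes tested. Leaving out 1 batch gave 169 to 793 genes higher and 117 to 662 lower, and 0 to 2 members higher and 0 to 2 lower; the most calls came without batch 3. The mean difference in the suprabasal share was -0.00534 percentage points with coding lengths, an alternative chosen after seeing the data, and -0.00285 to 0.0475 with 1 batch left out; the cause was not tested. Depth limits Krt13, Krt2 and, in batch 3, Krt4, where cultures held as few as 1 to 11 counts. Of the 4 called members, 3 passed without batch 3, 1 without batch 1 and 0 without batch 2.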
